A study of Mus musculus with 12 samples.

Results

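Megakaryocytes are the bone marrow cells that release platelets, and the genes that equip platelets are already read in part of the stem cell compartment. Here 10 megakaryocyte and platelet genes were followed among the 46103 genes of the series: Pf4, Ppbp, Vwf, Gp1bb, Gp9, Itga2b, Gp6, Mpig6b, Treml1 and Selp. They were chosen by name as textbook markers of the lineage, with earlier results of these data known. They cover the chemokines, the von Willebrand factor and its receptor, the fibrinogen receptor, the receptors that carry or pair with ITAM and ITIM signals, and the granule selectin. In platelets, von Willebrand factor and collagen at a damaged vessel engage the GPIb-IX-V complex and GPVI, signaling then activates the integrin αIIbβ3, and α-granules release chemokines and bring P-selectin to the surface. Blood stem cells share several of these genes, including Vwf and Itga2b, with megakaryocytes.

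The 12 libraries were prepared from C57BL/6 mice with a disease like chronic myeloid leukemia (CML). Donor marrow from fluorouracil-treated mice, cultured overnight with thrombopoietin, stem cell factor and interleukin 6, received BCR-ABL1 by retrovirus and was injected into lethally irradiated wild-type recipients. The donor cells carried the G0 marker (G0M), a fluorescent reporter of the G0 phase kept at Rosa26 and switched on by Vav1-Cre, which acts in blood cells. KSL cells (c-Kit-positive, Sca-1-positive and lineage-negative) that were BCR-ABL1+ and CD27+ were sorted from bone marrow and spleen, 100 cells per library. DP cells were G0M+ and SP cells G0M-, both from vehicle-treated mice, and IMDP cells (G0M+) and IMSP cells (G0M-) came from mice dosed daily by oral gavage with imatinib, which blocks the kinase activity of BCR-ABL1. Each group had 3 libraries. All groups therefore share BCR-ABL1, the reporter, Vav1-Cre and irradiated hosts, and no library of normal stem cells was used here. Nothing in the labels says whether the libraries of a group came from separate mice, so the p-values measure the spread between these libraries, which may be technical. By the reporting summary the mice were young adult females in all experiments.

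The values are RPKM, reads per kb of transcript and M reads, so levels of different genes can be set side by side. The reads behind them were recovered from the RPKM steps, with totals of 11.4 to 20.6 M per library, at which 1 read on a 1 kb transcript equals 0.0486 to 0.0880 RPKM. Genes at 1 RPKM or more in at least 3 libraries were tested, 10072 in all, with limma on log2(RPKM + 0.1). Of the sorting markers, Kit had group means of 18.7 to 33.2 RPKM and Cd27 of 13.7 to 17.4 RPKM. The proliferation gene Mki67 was lower in G0M+ than in G0M- cells by 2.42 on the log2 scale (SE 0.16, limma, adjusted p = 6.12e-06), without overlap of libraries. Of all genes tested, 12.7% were lower without overlap in DP than SP cells and 32.8% in IMDP than IMSP cells. Summed RPKM of the 5 LSK markers lay between 72.2 and 151, and of the 4 proliferation markers between 18.6 and 216. Markers of other cells were present: the sums were 10.7 to 488 RPKM for 11 erythroid genes, 7.87 to 192 for 8 monocyte and macrophage genes and 28.2 to 267 for 8 lymphoid genes, of which Ebf1 and Ighm were at 0. The antibodies of the lineage gate were to CD5, B220, CD11b, Gr-1 and Ter119, so no antibody to a platelet glycoprotein was part of the gate.

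The members covered a wide range of levels. Itga2b and Selp were at 1 RPKM or more in all 12 libraries and Pf4 in 11, followed by Vwf in 7, Gp9 in 6, and Ppbp and Treml1 in 4 each. Gp1bb reached 1 RPKM in 1 library, and Gp6 and Mpig6b in none. Accordingly 7 members were tested, and Gp1bb, Gp6 and Mpig6b were not. The 4 libraries through which Ppbp passed were all G0M+, so the threshold on low values had selected Ppbp for a high level in that population. By group means of RPKM, Ppbp (22.0), Itga2b (17.9) and Pf4 (17.5) stood highest in DP cells, within their spreads of each other, whereas in SP cells Itga2b (14.7) and Selp (8.55) came first and Ppbp (0.0662) stood above Gp6 and Mpig6b only.

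**Figure D1:**
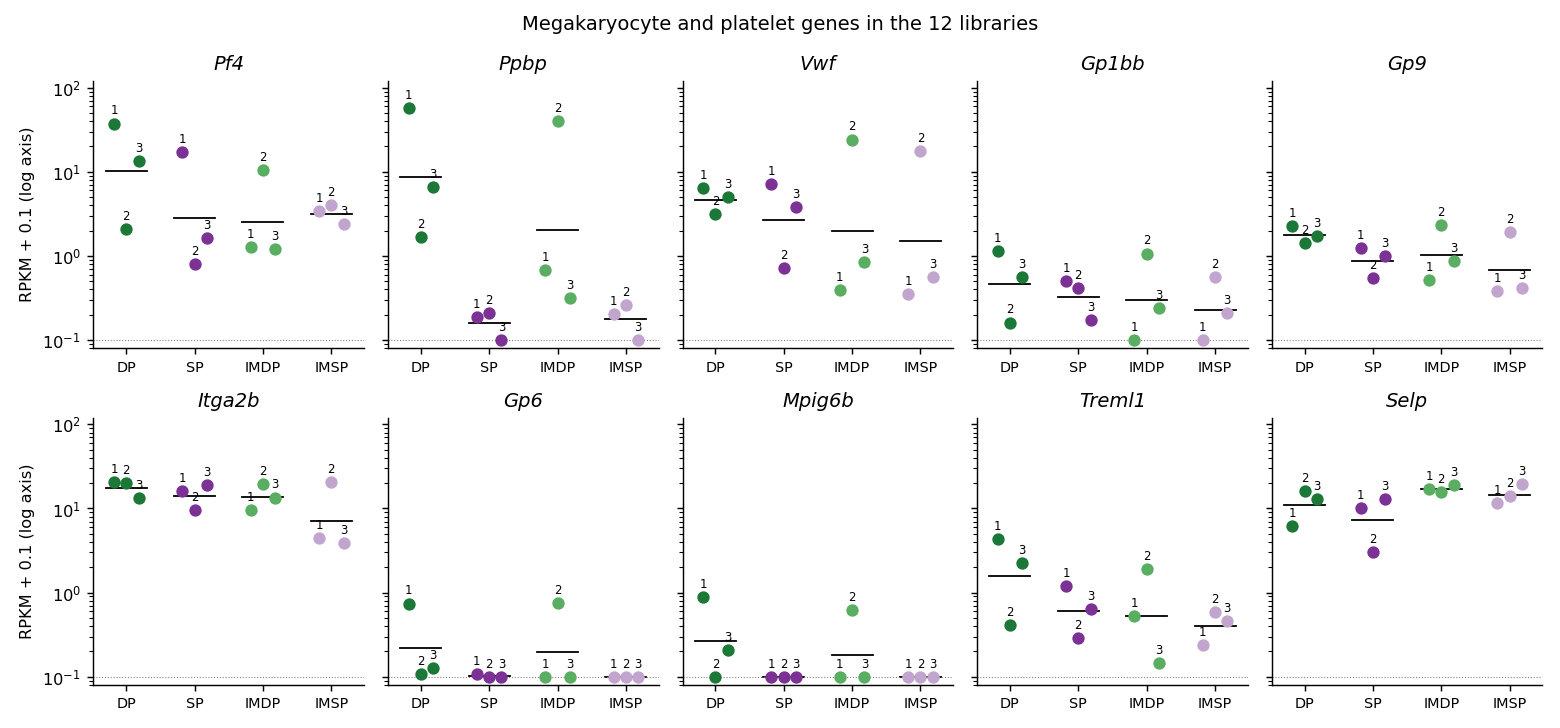
RPKM + 0.1 of the 10 members (log axis) in each library, with the replicate number above each point, a bar at the geometric mean of a group and a dotted line where a gene is at 0 RPKM. Ppbp lies above all G0M- libraries in all 6 G0M+ libraries, the points of Gp6 and Mpig6b rise only in DP1 and IMDP2, with small values in DP3, and Itga2b and Selp stay above 1 RPKM in all 12 libraries.

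The chemokines were examined first. Ppbp encodes pro-platelet basic protein, the precursor of a granule chemokine that attracts neutrophils, and Pf4 encodes platelet factor 4, an α-granule chemokine that binds heparin. They are neighbors on chromosome 5 of GRCm38 on the same strand, Ppbp at chr5:90768518-90770063 and Pf4 at chr5:90772435-90773383, with 2371 bases between them. Because the genes lie side by side but differed between populations, the 250 bases before the start of each are shown from RefSeq (GRCm38.p6), with matches to AGGAAG, a core bound by ETS factors, in capitals. The core GATAA, known from sites of the GATA family, was searched as well on both strands. So were CGGAAG, a further form of ETS sites, and TGAGTCA, which occurs in sites of NF-E2 and AP-1, and no matches overlapped in the members. Shorter or other forms of these sites were not searched, so a window without a match may still hold them. AGGAAG was found in 29.5% of the 32851 windows of the table, GATAA in 22.6%, CGGAAG in 13.6% and TGAGTCA in 4.46%. The window of Ppbp, at chr5:90768268-90768517, held none of the 4 motifs, and that of Pf4, at chr5:90772185-90772434, held AGGAAG once on the opposite strand, 9 to 4 bases before the start. These are descriptions of letters, not of binding.
Ppbp: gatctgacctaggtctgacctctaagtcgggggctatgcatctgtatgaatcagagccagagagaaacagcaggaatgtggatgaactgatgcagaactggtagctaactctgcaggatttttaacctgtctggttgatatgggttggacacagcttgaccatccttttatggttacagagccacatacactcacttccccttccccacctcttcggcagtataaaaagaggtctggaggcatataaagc
Pf4: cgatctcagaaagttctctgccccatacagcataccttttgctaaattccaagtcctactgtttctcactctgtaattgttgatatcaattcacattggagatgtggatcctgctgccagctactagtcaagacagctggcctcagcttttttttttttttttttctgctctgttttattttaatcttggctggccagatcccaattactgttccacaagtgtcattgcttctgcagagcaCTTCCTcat

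Ppbp had higher values in the G0M+ libraries under both treatments, though only the difference averaged over treatments passed the threshold. In DP1, DP2 and DP3 it reached 57.8, 1.59 and 6.55 RPKM, from 981, 27 and 105 reads, and in SP1, SP2 and SP3 0.0898, 0.109 and 0 RPKM, from 2, 2 and 0 reads. In IMDP1, IMDP2 and IMDP3 the values were 0.572, 40.0 and 0.218 RPKM, and in IMSP1, IMSP2 and IMSP3 0.105, 0.162 and 0 RPKM, with at most 2 reads. Each G0M+ library was thus above each G0M- library of its treatment, as for 9.68% of all genes tested under vehicle and 6.21% under imatinib. The G0M+ libraries themselves spread in Ppbp from 0.218 to 57.8 RPKM, with DP1 and IMDP2 far above the rest. Averaged over treatments, the log2 fold change was 4.66 (SE 1.12, 95% interval 2.22 to 7.10, limma, adjusted p = 0.0119), and 1 of 7 tested members passed the threshold of 0.05. Since Ppbp had entered the test through its G0M+ libraries, this call is not independent of the threshold on low values. With no such threshold the adjusted p was 0.0239 (limma). Among all genes tested, 26.3% passed in this contrast, 5.32% as higher and 21.0% as lower in G0M+ cells. With libraries scaled to the same median 11.2% were higher and 12.4% lower. Relative to the median of all genes, which was -0.13, the change of Ppbp was 4.80.

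The size of this difference depends on how values near 0 are handled. With a pseudocount of 1 in place of 0.1 the log2 fold change was 2.64 (limma, adjusted p = 0.0417), and with 0.01 it was 6.17 (adjusted p = 0.0091). When DP1 and IMDP2 were left out, it was 2.90 (adjusted p = 0.0137), and 22.7% of all genes tested passed. However, limma-voom on the recovered reads gave 5.56 with an adjusted p of 0.308, and the call was lost there. Within the treatments, the difference of Ppbp was 5.78 between DP and SP cells (SE 1.58, limma, adjusted p = 0.101) and 3.55 between IMDP and IMSP cells (SE 1.58, adjusted p = 0.117), neither past the threshold. Leaving out single libraries moved them to 4.41 to 6.95 and 1.40 to 4.89. With neighboring library numbers as pairs both were called (limma, adjusted p = 0.0126 and 0.0234), where 9.73% and 44.1% of all genes were. Without IMDP2 the difference between DP and SP cells was called (adjusted p = 0.0144), where 2.44% of all genes were. Imatinib minus vehicle, the 2 differences in the main fit differed by -2.23 (95% interval -7.11 to 2.64, adjusted p = 0.740).

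Pf4 did not separate the populations. It stood at 37.4, 1.96 and 13.3 RPKM in DP1, DP2 and DP3 and at 17.1, 0.702 and 1.52 RPKM in SP1, SP2 and SP3. Under imatinib it stood at 1.18, 10.3 and 1.10 RPKM in IMDP1, IMDP2 and IMDP3 and at 3.29, 3.89 and 2.27 RPKM in IMSP1, IMSP2 and IMSP3. The libraries overlapped in every comparison, and all 12 held at least 7 reads of Pf4, unlike Ppbp. The difference on the log2 scale was 1.85 between DP and SP cells (95% interval -0.82 to 4.51, limma, adjusted p = 0.541) and -0.33 between IMDP and IMSP cells (-2.99 to 2.33, adjusted p = 0.860). Both chemokines are listed as numbered copies of equal length in the files, which were summed: the copies of Pf4 held 425 and 467 reads in all and those of Ppbp 889 and 888.

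Vwf encodes von Willebrand factor, the adhesive protein stored in α-granules and in endothelial cells, at chr6:125546774-125686679 on the plus strand. RefSeq promoters were found for 9 of the 10 members, not for Vwf. In vehicle libraries Vwf reached 6.32, 3.02 and 4.85 RPKM in DP1, DP2 and DP3, and 6.96, 0.617 and 3.76 RPKM in SP1, SP2 and SP3. Under imatinib IMDP1, IMDP2 and IMDP3 stood at 0.290, 24.1 and 0.748 RPKM, and IMSP1, IMSP2 and IMSP3 at 0.251, 17.7 and 0.458 RPKM. IMDP2 and IMSP2 were thus above every vehicle library and the other 4 imatinib libraries below nearly all of them, only SP2 lying between. These 2 libraries carry the neighboring library numbers 4 and 3 and together held 60.5% of the Vwf RPKM of the series, where any 2 of 12 libraries would hold 16.7% of an evenly spread gene. Under imatinib the means of the 3 neighboring pairs ranged over 5.81 on the log2 scale, whereas the largest difference within a pair was 0.60. Under vehicle the order was the other way, with pair means over 1.46 and a largest difference within a pair of 3.16, in DP1 and SP2.

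Accordingly, Vwf did not pass the threshold between populations or treatments. The log2 fold change was 0.59 for G0M+ against G0M- cells (SE 1.13, limma, adjusted p = 0.720) and -1.02 for imatinib against vehicle (SE 1.13, adjusted p = 0.667). Leaving out IMDP2 and IMSP2, a choice made after seeing the data, turned the second value into -2.81 (adjusted p = 0.0307), and 3.66% of all genes tested then passed. The endothelial markers moved with Vwf in part: the summed RPKM of 8 genes was highest in IMDP2 (24.0) among IMDP and in IMSP2 (15.4) among IMSP libraries, but was 17.4 in DP2, where Vwf was lowest of the DP libraries. Most of this sum was Tie1 in every library, a gene that blood stem cells also use. Kdr (0.626 and 0.321 RPKM) and Plvap (1.58 and 0.580) were highest of their groups in IMDP2 and IMSP2. Stab2 was lowest of its groups there (0.0909 and 0.0324), and Sox18 was highest in IMDP2 (0.291) but at 0 in IMSP2. Of the 8, 3 were under 0.1 RPKM in every library, Cdh5, Flt4 and Aplnr. A share of endothelial cells was not tested.

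The GPIb-IX-V complex, the receptor for von Willebrand factor, was represented by Gp1bb and Gp9. Gp9 encodes glycoprotein IX, at chr6:87778072-87779768 on the plus strand. Its values were low, over a 7.85-fold range: 2.16, 1.33 and 1.63 RPKM in DP1, DP2 and DP3, 1.14, 0.445 and 0.909 in SP1, SP2 and SP3, 0.418, 2.25 and 0.765 in IMDP1, IMDP2 and IMDP3, and 0.287, 1.80 and 0.320 in IMSP1, IMSP2 and IMSP3. The DP libraries lay above all SP libraries, as for 9.68% of all genes tested, and under imatinib the populations overlapped. The difference was 1.01 on the log2 scale between DP and SP cells (SE 0.66, limma, adjusted p = 0.536) and 0.80 averaged over treatments (SE 0.47, adjusted p = 0.211). Without IMSP2 the latter was 1.17 and was called (limma, adjusted p = 0.0431), where 29.0% of all genes tested were. As with Vwf, IMDP2 and IMSP2 were the highest imatinib libraries, and the correlation of log2 values of Gp9 and Vwf over the 12 libraries was 0.93.

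Gp9 is shown with its promoter window because it was one of 3 members that held GATAA there and the only one that also held AGGAAG. The 250 bases lie at chr6:87777820-87778069, with GATAA on the gene's own strand 43 to 39 bases and AGGAAG on the opposite strand 16 to 11 bases before the start, both in capitals.
Gp9: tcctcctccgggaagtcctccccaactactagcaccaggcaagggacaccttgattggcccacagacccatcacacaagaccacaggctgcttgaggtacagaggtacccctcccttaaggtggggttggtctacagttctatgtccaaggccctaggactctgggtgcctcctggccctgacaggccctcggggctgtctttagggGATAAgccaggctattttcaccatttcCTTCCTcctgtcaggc

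Gp1bb encodes the β subunit of glycoprotein Ib, at chr16:18620317-18622403 on the minus strand, and overlaps Sept5 on the same strand, so its reads are uncertain. DP1, DP2 and DP3 stood at 1.04, 0.0613 and 0.454 RPKM, SP1, SP2 and SP3 at 0.396, 0.311 and 0.0712 RPKM, IMDP2 and IMDP3 at 0.967 and 0.142 RPKM, and IMSP2 and IMSP3 at 0.464 and 0.107 RPKM. IMDP1 and IMSP1 had 0 reads, and the highest library, DP1, had 34. The populations overlapped under both treatments. The mean of log2(RPKM + 0.1) was 0.45 higher in G0M+ cells (exact permutation test within treatments, two-sided, p = 0.535), and -0.34 without DP1 and IMDP2.

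Itga2b encodes integrin αIIb (CD41), the α chain of the fibrinogen receptor and an early marker of the lineage, at chr11:102453297-102470122 on the minus strand. It was the most evenly abundant member beside Selp, at 20.3, 20.1 and 13.2 RPKM in DP1, DP2 and DP3 and 15.9, 9.45 and 18.8 RPKM in SP1, SP2 and SP3. IMDP1, IMDP2 and IMDP3 stood at 9.37, 19.7 and 13.4 RPKM and IMSP1, IMSP2 and IMSP3 at 4.30, 20.8 and 3.75 RPKM. IMSP1 and IMSP3 were thus the lowest libraries of the series and IMSP2 the highest, and the groups overlapped. The log2 difference was 0.31 for DP minus SP (SE 0.54, limma, adjusted p = 0.819), 0.95 for IMDP minus IMSP (SE 0.54, adjusted p = 0.211) and -1.01 for IMSP minus SP (SE 0.54, adjusted p = 0.643). Without IMSP2, Itga2b was called higher in IMDP than IMSP cells (1.73, limma, adjusted p = 0.00902), where 25.3% of all genes tested were called, higher in G0M+ cells on average (1.02, adjusted p = 0.0112), where 29.0% were, and lower under imatinib (-1.08, adjusted p = 0.0482), where 1.42% were.

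GPVI, encoded by Gp6, is the platelet collagen receptor that signals through the ITAM of the Fc receptor γ chain. Mpig6b encodes G6b-B, an ITIM receptor that restrains such signals. Treml1 encodes TLT-1, an α-granule receptor that also carries an ITIM. Gp6 lies at chr7:4363965-4397744 and Mpig6b at chr17:35062693-35066184, both on the minus strand, and Treml1 at chr17:48359916-48367176 on the plus strand. Mpig6b is listed in the files as G6b, in 4 numbered copies, and overlaps Ly6g6c on the opposite strand by 797 bases. Since the counting is not stated to use strand, reads there cannot be told apart.

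Gp6 and Mpig6b were nearly confined to DP1 and IMDP2. Gp6 reached 0.641 RPKM (72 reads) in DP1 and 0.647 RPKM (69 reads) in IMDP2, with 1 read in DP2, 3 in DP3, 1 in SP1 and 0 in the other 7 libraries. Mpig6b reached 0.783 RPKM (31 reads) in DP1, 0.106 RPKM (4 reads) in DP3 and 0.514 RPKM (20 reads) in IMDP2, and had 0 reads in the other 9, G0M- libraries included. A count of 0 allows up to 3 reads per library, so low expression there was not detectable at this depth. The difference between populations in mean log2(RPKM + 0.1) was 1.03 for Gp6 (exact permutation test within treatments, two-sided, p = 0.05) and 1.13 for Mpig6b (p = 0.200). With the libraries tied at 0 reads, 0.05 for Gp6 and 0.200 for Mpig6b were the lowest p-values this test could give. It therefore cannot decide on either gene. In all, 6 such tests were made on the 3 untested members, none with a p under 0.05 before adjustment. Leaving out IMDP1 or IMDP3, both at 0 reads of Gp6, gave 1.27 for Gp6 (exact permutation, p = 0.02), and leaving out DP1 and IMDP2 together gave 0.10 (exact permutation, p = 0.1). Each of these p-values was the lowest that the remaining libraries could give, so a change in p here is no change in evidence. Between treatments the differences were -0.09 for Gp6 (exact permutation, p = 0.5) and -0.26 for Mpig6b (p = 0.700). Without ties, 400 relabelings can give no p under 0.005, and the ties at 0 reads raise that limit for both genes.

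Because these 2 genes shared this pattern, their promoter windows are shown, at chr7:4397745-4397994 for Gp6 and chr17:35066185-35066434 for Mpig6b, written in the direction of the gene. Each held GATAA once, in capitals, on the gene's own strand in Gp6 and on the opposite strand in Mpig6b, and none of the other 3 motifs. Ppbp, which shared the pattern, held none of the motifs.
Gp6: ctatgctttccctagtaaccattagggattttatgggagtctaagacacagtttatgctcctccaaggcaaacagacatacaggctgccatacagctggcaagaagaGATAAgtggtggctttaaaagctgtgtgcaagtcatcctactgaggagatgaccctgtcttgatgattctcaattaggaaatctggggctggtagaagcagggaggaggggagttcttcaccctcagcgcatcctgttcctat
Mpig6b: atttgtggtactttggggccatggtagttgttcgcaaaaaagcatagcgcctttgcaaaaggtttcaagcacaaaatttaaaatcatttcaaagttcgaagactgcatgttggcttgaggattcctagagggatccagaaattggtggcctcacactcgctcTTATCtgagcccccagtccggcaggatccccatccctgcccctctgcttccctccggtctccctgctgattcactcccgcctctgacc

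Treml1 stood at 4.19, 0.307 and 2.16 RPKM in DP1, DP2 and DP3 and at 1.09, 0.189 and 0.535 RPKM in SP1, SP2 and SP3. In IMDP1, IMDP2 and IMDP3 it stood at 0.433, 1.83 and 0.0472 RPKM and in IMSP1, IMSP2 and IMSP3 at 0.137, 0.493 and 0.356 RPKM, from at most 7 reads. DP1 and DP3 were the highest 2 of the series, and the groups overlapped in every comparison. The difference of Treml1 was 1.39 on the log2 scale for DP minus SP (SE 1.01, limma, adjusted p = 0.573) and 0.90 averaged over treatments (SE 0.71, adjusted p = 0.357).

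Selp, which encodes the granule adhesion molecule P-selectin of platelets and endothelial cells, departed from the other members. It lies at chr1:164115264-164150026 on the plus strand, where 2 non-coding genes overlap it on the opposite strand. Its values were 6.07, 16.1 and 12.7 RPKM in DP1, DP2 and DP3, 9.91, 2.95 and 12.8 in SP1, SP2 and SP3, 16.9, 15.4 and 18.7 in IMDP1, IMDP2 and IMDP3, and 11.6, 13.8 and 19.2 in IMSP1, IMSP2 and IMSP3. DP1, the library highest in Pf4, Ppbp and Treml1, was the lowest but one for Selp. Over the 12 libraries its correlation with the other 6 tested members lay between -0.16 and 0.01, whereas those 6 correlated with each other at 0.34 to 0.93, all given as descriptions of libraries that share group and depth. Under imatinib Selp was higher by 0.83 on the log2 scale (SE 0.34, 95% interval 0.09 to 1.56), with an unadjusted p of 0.0302 but an adjusted p of 0.228 (limma), and it was the only tested member above 0 in this contrast.

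**Figure D2:**
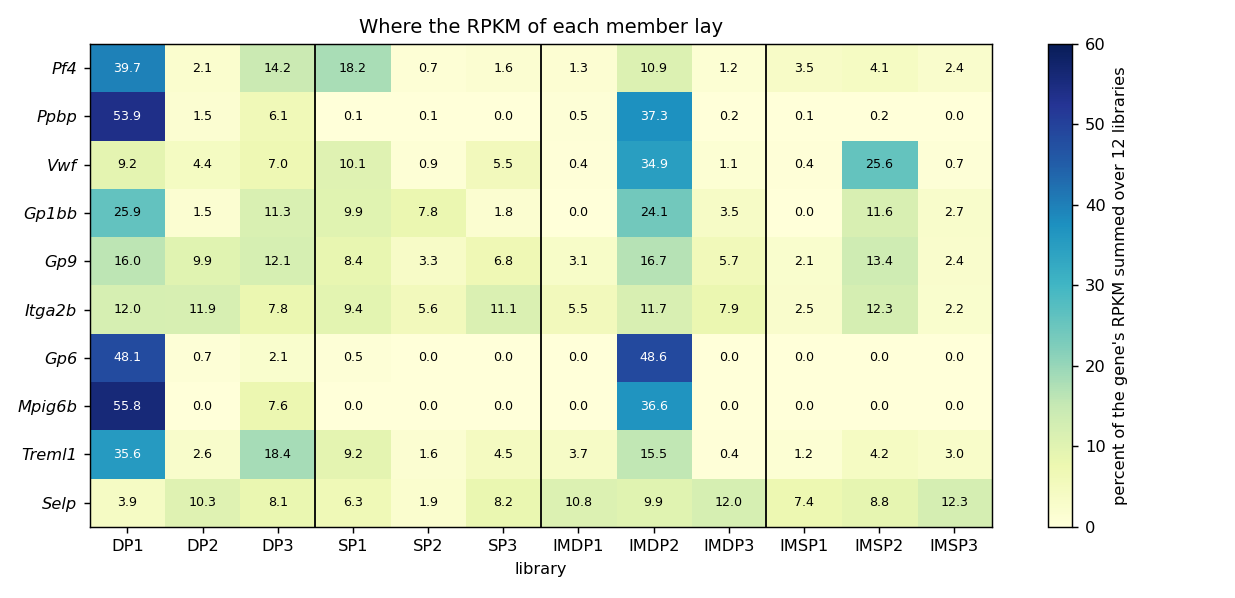
Percent of each member's RPKM, summed over the 12 libraries, that lay in each library, with lines between groups. DP1 and IMDP2 hold 96.7% of Gp6, 92.4% of Mpig6b and 91.2% of Ppbp, IMDP2 and IMSP2 hold 60.5% of Vwf, and Selp is spread over all libraries with the exception of low shares in DP1 and SP2.

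The members were then compared by where their RPKM lay. DP1 and IMDP2 held 96.7% of Gp6, 92.4% of Mpig6b, 91.2% of Ppbp, 51.1% of Treml1 and 50.7% of Pf4, against 44.1% of Vwf, 32.8% of Gp9, 23.7% of Itga2b and 13.8% of Selp. Ppbp, Gp6 and Mpig6b were thus concentrated in 2 of 12 libraries, and Itga2b and Selp were not. In reads, the 10 members together took 1570 reads per M on listed features in IMDP2, 816 in IMSP2 and 751 in DP1, against 149 to 509 in the other 9 libraries. Fewer cells of a type and less RNA per cell cannot be told apart in sums over 100 cells. Other markers moved with these libraries: DP1 had the highest sum of the DP libraries for 8 mast cell and basophil genes (279 RPKM, against 62.4 and 69.4) and for 8 neutrophil and granule genes (1170 RPKM, against 50.8 and 206), whereas IMDP2 had the lowest neutrophil sum of the IMDP libraries (60.8 RPKM) and a mast cell and basophil sum of 35.6 RPKM, between the other IMDP libraries at 13.1 and 180. DP1 was also the highest DP library for the monocyte and macrophage sum (79.9 RPKM), the lymphoid sum (175 RPKM) and the proliferation sum (60.9 RPKM). For the endothelial and LSK sums DP1 was the lowest DP library (7.22 and 89.6 RPKM). SP2, lowest of the SP libraries for Pf4, Itga2b, Vwf, Gp9, Treml1 and Selp, had the highest neutrophil sum of the series (2190 RPKM). The part of these cells in the results was not tested.

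The population comparison was next set against the background. In DP against SP cells 0 of 7 tested members passed (limma), where 2.26% of all genes did, 1 had an unadjusted p under 0.05, and limma-voom called 0 members and 2.88% of all genes. In this comparison Ppbp and Gp9 were without overlap and higher in DP, 2 of 7, where 9.68% of all genes were, and Gp6, not tested, was too. In IMDP against IMSP cells 0 of 7 passed (limma), where 25.6% of all genes did, with 1 member at an unadjusted p under 0.05 and 0 members and 15.6% of all genes called by limma-voom. Of all genes 2.37% were called higher and 23.3% lower there, against 6.42% and 9.33% with libraries scaled to the same median. Ppbp alone was without overlap there, where 6.21% of all genes were without overlap and higher. The log2 fold change was above 0 in 7 of 7 members for DP against SP cells, with a median of 1.01, where the median of all genes was -0.02 and 48.1% were above 0. For IMDP against IMSP cells it was above 0 in 6 of 7, with a median of 0.41, where the median of all genes was -0.25. Averaged over treatments limma-voom called 0 members and 24.8% of all genes. No member passed the test of whether the population difference changed with imatinib, nor did any gene (limma, 0 of 7 members and 0.0% of all genes, 937 genes and 0 members at an unadjusted p under 0.05, limma-voom 0.0%).

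**Figure D3:**
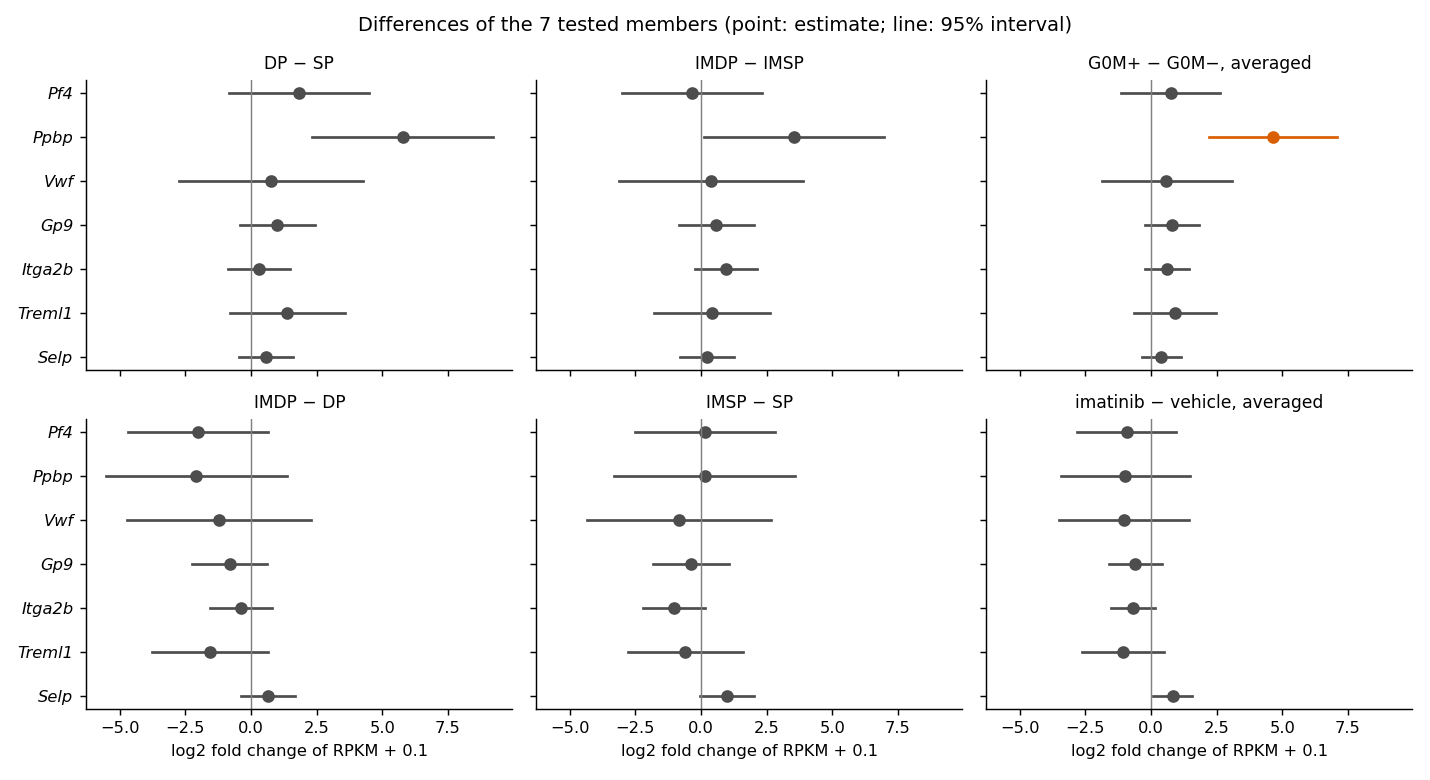
Log2 fold changes of the 7 tested members (points) with 95% intervals (lines) from limma on log2(RPKM + 0.1), in 6 contrasts, with calls at an adjusted p under 0.05 in orange. Only Ppbp, for G0M+ against G0M- cells averaged over treatments, is called, and the intervals of Pf4, Ppbp and Vwf are wider than those of Itga2b and Selp.

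Imatinib was compared with vehicle within each population. In IMDP against DP cells 0 of 7 members passed (limma, 0 also at an unadjusted p under 0.05 and 0 by limma-voom), where 0.367% of all genes did and limma-voom called 0.109%. No member was without overlap, where 23.6% of all genes were. The largest differences were -2.08 for Ppbp (95% interval -5.53 to 1.36, adjusted p = 0.485) and -2.00 for Pf4 (-4.66 to 0.66, adjusted p = 0.379), and both intervals hold 0. Without single libraries they ranged from -4.23 to -0.71 for Ppbp and from -3.15 to -1.06 for Pf4. In IMSP against SP cells 0 of 7 passed (limma, 0 also at an unadjusted p under 0.05 and 0 by limma-voom), as did 0.0% of all genes by either method, and no member was without overlap, where 13.8% of all genes were. Averaged over populations, 0 of 7 passed (limma), where 0.854% of all genes did, and limma-voom called 0 members and 1.63% of all genes, with Selp alone at an unadjusted p under 0.05. The medians of the members were -1.21, -0.38 and -0.91 in these 3 contrasts, against -0.17, 0.08 and -0.05 for all genes. These contrasts share their libraries with the population contrasts. All imatinib libraries carry library numbers 1 to 6 and all vehicle libraries 7 to 12, so treatment and library order cannot be told apart.

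Neighboring library numbers gave 6 pairs of a G0M+ and a G0M- library, and deviations from the group means correlated at 0.43 to 0.65 within them. Ppbp was higher in the G0M+ library in 6 of 6 pairs, by 1.67 to 8.12 on the log2 scale, and Gp9 in 6 of 6, by 0.30 to 2.05. Selp was higher in 5 of 6 pairs, by up to 1.02. Pf4 was higher in 3 and lower in 3, from -1.40 to 5.55, the highest value again belonging to the pair with DP1. With these pairs as a block, 3 of 7 members were called for G0M+ against G0M- cells, Ppbp (4.66, limma, adjusted p = 0.00126), Selp (0.39, adjusted p = 0.0201) and Gp9 (0.80, adjusted p = 0.0250), where 46.9% of all genes were called. In DP against SP cells Ppbp alone was called with this block (5.78, adjusted p = 0.0126), where 9.73% of all genes were, and in IMDP against IMSP cells Ppbp (3.55, adjusted p = 0.0234) and Itga2b (0.95, adjusted p = 0.0431), where 44.1% were. Since Ppbp had passed the threshold on low values through G0M+ libraries alone, its pair count and calls here are not independent of that threshold. The labels do not say what the library numbers stand for, and the pairs rest on correlations in these same data.

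**Figure D4:**
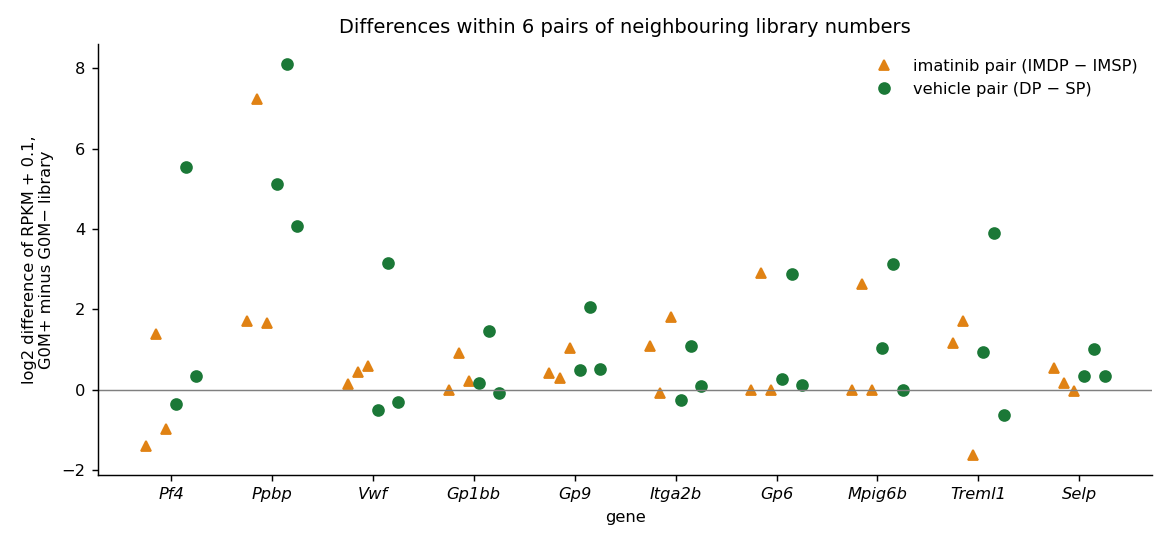
Log2 difference of RPKM + 0.1 between the G0M+ and the G0M- library of each pair of neighboring library numbers, for the 10 members, with imatinib pairs as triangles and vehicle pairs as circles. All 6 points of Ppbp and of Gp9 are above 0, and those of Pf4 and Treml1 lie on both sides.

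Other genes of the lineage were counted from 4 lists. Of 16 platelet receptors and adhesion molecules 13 were tested, and 1 passed for G0M+ against G0M- cells, Pear1, which encodes an adhesion receptor of platelets (0.92, SE 0.28, limma, adjusted p = 0.0310), where 26.3% of all genes passed and 5.32% as higher. It stood at 4.47, 6.25 and 8.72 RPKM in DP1, DP2 and DP3, at 4.82, 1.85 and 5.28 RPKM in SP1, SP2 and SP3, at 8.23, 10.5 and 7.94 RPKM in IMDP1, IMDP2 and IMDP3, and at 3.49, 6.63 and 3.02 RPKM in IMSP1, IMSP2 and IMSP3, so the populations were without overlap under imatinib only. Under imatinib 6.21% of all genes tested were higher without overlap. The call of Pear1 was lost without any one of DP2, DP3, SP2, IMDP2, IMSP1 and IMSP3 (adjusted p of 0.0547 to 0.08, limma). The median change of the 13 was 0.62, above 0 in all 13, where all genes had a median of -0.13 and 36.6% were above 0. Of 12 granule cargo genes 9 were tested and 0 passed in this contrast (limma, median 0.48). In IMDP against IMSP cells Tgfb1, which encodes a growth factor stored in α-granules and made by many blood cells, was called lower (-0.62, SE 0.21, adjusted p = 0.0457), where 25.6% of all genes were called and 23.3% as lower. That call was lost with libraries scaled to the same median (-0.34, adjusted p = 0.213), and without any one library other than IMDP1 or IMSP2 (adjusted p of 0.0516 to 0.161, limma).

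Of 16 genes of signaling, cytoskeleton and granule formation 14 were tested and 2 passed, both higher in G0M+ cells, with a median of 0.54, where again 5.32% of all genes passed as higher. Plek, the gene of the protein kinase C substrate pleckstrin, rose by 1.19 (SE 0.26, limma, adjusted p = 0.00800), and Nbeal2, needed for α-granules, by 0.48 (SE 0.10, adjusted p = 0.00535). Nbeal2 stood at 9.46, 11.0 and 10.8 RPKM in DP1, DP2 and DP3 against 8.66, 6.66 and 8.59 in SP1, SP2 and SP3, and at 12.9, 14.9 and 13.2 in IMDP1, IMDP2 and IMDP3 against 9.44, 8.95 and 8.79 in IMSP1, IMSP2 and IMSP3, without overlap under either treatment. Of all genes tested, 9.68% were higher without overlap in DP than SP cells and 6.21% in IMDP than IMSP cells. Nbeal2 also passed in IMDP against IMSP cells (0.58, adjusted p = 0.0120), where 25.6% of all genes did and 2.37% as higher, and this call was lost without IMDP2 and IMSP2 (0.51, limma, adjusted p = 0.0770). Of 11 megakaryocyte transcription factors all 11 were tested, with a median of 0.12, and 1 passed, Tal1, a factor of erythroid and megakaryocyte development (0.55, SE 0.17, adjusted p = 0.0361), which also passed in IMDP against IMSP cells (0.73, adjusted p = 0.0469). The first call of Tal1 was kept without SP3, IMDP1, IMDP3 or IMSP2 only (adjusted p of 0.0515 to 0.0866 without any other), and the second without SP2 or IMSP2 only (0.0517 to 0.152, limma). In DP against SP, IMDP against DP and IMSP against SP cells and between treatments, none of the 4 lists held a called gene (limma).

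Finally, the genes most alike to each tested member were listed by Pearson's r of log2(RPKM + 0.1) over the 12 libraries, among all genes tested and as a description only. Those of Ppbp were Thbs1 (0.968), the gene of the granule protein thrombospondin 1, Tubb1 (0.961), the β1-tubulin of platelets, and Slc6a4 (0.945), the serotonin transporter. Thbs1 stood at 14.8 RPKM in DP1 and 16.9 in IMDP2 and Tubb1 at 8.35 and 13.7 RPKM, so DP1 and IMDP2 held 85.5% and 87.6% of their RPKM. The genes most like Pf4 were Treml1 (0.871), Tubb2a (0.865) and Ets2 (0.850), and those most like Treml1 were F2rl2 (0.889), Ets2 (0.885) and Pf4 (0.871). For Itga2b they were Rab27b (0.951), Gnb4 (0.941) and Tgm2 (0.927), for Gp9 Adcy6 (0.958), Serpinb6a (0.950) and Casp4 (0.937), and for Vwf Pde4dip (0.957), Clca3a1 (0.939) and Reep2 (0.934). Those of Selp were Sh2b3 (0.929), Aig1 (0.917) and Zfp810 (0.912). Of the tested members, Pf4 and Treml1 alone had a gene in common among their 3 most alike, Ets2.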

How the data were processed

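The authors sorted 100 cells per library, sequenced total RNA made into cDNA with not-so-random primers and a Nextera XT kit, and deposited RPKM values, 1 for each feature in each library. Mapping with CLC Genomics Workbench to GRCm38 is given in the methods, the reporting summary HISAT2 and featureCounts, and the submitters' processing notes edgeR. Strand, duplicate removal and annotation were not given in the sources used here. RPKM values lay on whole-read steps for 17724 of 17735 features above 0 (tolerance 0.02 reads), and reads were recovered from them, which in simulated data was exact for 99.7% of 4826 features of 20 or more reads. Of each total, 25.8% to 37.1% fell on the 48737 listed features. This share was 31.1%, 25.8% and 27.0% in IMDP1, IMDP2 and IMDP3, below the 37.1%, 35.3% and 32.6% in IMSP1, IMSP2 and IMSP3. The steps cover counting error only, since PCR copies were not marked.

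Numbered copies were summed. Genes at 1 RPKM in 3 libraries were tested with limma 3.58.1 in R 4.3.3 on log2(RPKM + 0.1), with 4 group means, a variance trend and Benjamini-Hochberg adjustment over all 10072 genes, at 0.05, two-sided, in 7 contrasts. In simulated data for DP against SP cells, 95.4% of genes changed 4-fold were called and 4.1% of calls were false, over 9921 genes. The simulated libraries were independent and spread less than Ppbp, Pf4 and Vwf did (SE of 1.58, 1.22 and 1.60 in this contrast). The share called therefore does not apply to these members. Untested members were compared by exact permutation. Means, correlations, motif counts and figures used Python 3.11.15 with numpy 2.4.6, pandas 2.3.3, scipy 1.17.1 and matplotlib 3.10.9. Positions are from GENCODE M21 and sequences from RefSeq, both on GRCm38.

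The members and gene lists were chosen with earlier results of these data known, and 1 gene of the transcription factor list is not reported here. Named were all members, the genes of 4 further lists past the threshold (at most 3 per list and contrast) and the 3 genes most like each tested member. Of the markers, Kit, Ly6a, Cd27, Mki67, Ebf1, Ighm and the endothelial genes were named. Thbs1 and Tubb1 have their values given as such most alike genes. Among the alternatives were other filters, pseudocounts, scalings and denominators, copies kept apart, limma-voom on recovered reads, blocks and left-out libraries. Neighboring library numbers deviated together (correlations of 0.43 to 0.65 in 6 of 6 pairs) and so pair the libraries by the data, though not by a label. Leaving out DP1 with IMDP2, or IMDP2 with IMSP2, was chosen after seeing the data.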

Additional observations from a re-analysis of the deposited data

How the results depend on the processing

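The call of Ppbp for G0M+ against G0M- cells was kept without each library in turn (log2 fold change 3.59 to 5.33) and under the other filters and scalings that could test it, and was lost in limma-voom (adjusted p = 0.308). With 1 RPKM required in 6 libraries Ppbp could not be tested and 0 members were called.

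The number in the sample titles pairs DP with SP at correlations of -0.30 to -0.10, IMDP with IMSP at 0.43 to 0.65, IMDP with DP at 0.09 to 0.20 and IMSP with SP at -0.40 to -0.23, so the number pairs libraries under imatinib, where it coincides with neighboring library numbers, and not elsewhere. The replicate block left the Ppbp call (adjusted p = 0.0141), moved no count of member calls and called 1 cargo gene, Tgfb1, in place of 0. With pairs of neighboring library numbers as a block, 1 member was called in DP against SP, 2 in IMDP against IMSP and 3 for population, and for population 8 receptors, 6 cargo, 8 signaling and 4 transcription factor genes, where 46.9% of all genes were called.

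Without single libraries the members called ranged from 0 to 1 (DP against SP and IMDP against IMSP), 1 to 3 (population) and 0 to 1 (treatment). The Gp9 and Itga2b calls came without IMSP2, the Ppbp call in DP against SP without IMDP2. For population, the receptor list ranged from 0 to 4 calls, cargo from 0 to 2, signaling from 2 to 6 and transcription factors from 0 to 4. Gp1bb ranged from -0.02 to 0.84 and Gp6 from 0.55 to 1.28 between populations, and Gp6 from -0.58 to 0.35 and Mpig6b from -0.70 to 0.18 between treatments.

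Without IMDP2 and IMSP2, 1, 1, 2 and 2 members were called in DP against SP, IMDP against IMSP, population and treatment, where 2.48%, 10.1%, 20.7% and 3.66% of all genes were, and for population 4, 7 and 4 receptor, signaling and transcription factor genes. Without DP1 and IMDP2, 1 member was called in DP against SP, where 2.86% of all genes were, 1 cargo and 0 transcription factor genes for population, and Gp1bb turned to -0.34. No filter gave 0 receptor and 0 transcription factor genes, pseudocount 0.01 gave 1 cargo gene, median scaling 2 receptor and 4 transcription factor genes, the listed-feature denominator 3 and 4, and limma-voom 3, 5 and 4 with signaling. The causes were not tested.

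Values without a call turned sign as follows. Without single libraries, Pf4 ranged from -1.35 to 0.20 in IMDP against IMSP and from -0.73 to 1.48 in IMSP against SP, and it was 0.04 with copies apart in the first, -0.06 with pseudocount 1 and -0.13 in limma-voom in the second, and -0.23 between populations without DP1 and IMDP2. Vwf ranged from -0.17 to 1.48 in DP against SP, -1.40 to 2.18 in IMDP against IMSP, -2.61 to 0.22 in IMSP against SP and -0.31 to 1.48 between populations (-0.43 without DP1 and IMDP2). Gp9 ranged from -0.02 to 1.34 and Treml1 from -0.51 to 1.34 in IMDP against IMSP (Treml1 -0.23 without IMDP2 and IMSP2), Gp9 from -1.13 to 0.02 and Ppbp from -0.18 to 0.55 in IMSP against SP (Ppbp -0.14 without IMDP2 and IMSP2), and Selp from -0.07 to 0.97 in DP against SP. With 3 libraries per group and few reads of Gp6, Mpig6b and Gp1bb, small differences were not detectable.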
